A study of Homo sapiens with 6 samples.

Results

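The transcripts described here are the NF-kappaB subunits NFKB1, NFKB2, REL, RELA and RELB, and the inhibitors NFKBIA, NFKBIB, NFKBIE, NFKBIZ and TNFAIP3. They were chosen by name as 10 of the 26810 gene rows of the deposited table, and all 10 rows were found and passed the filter on low values. The cells were U-937, a human acute myeloid leukemia line with monocytic features. Their labels name a KMT2A-MLLT10 fusion, which was not checked here, and the line is commonly described with another MLLT10 fusion. They were grown from a single Cas9 clone. A lentiviral guide, either sgMETTL1.3 directed at METTL1 or the control sgNS, was brought into that same clone, and both groups were kept in 10 µg/ml blasticidin and 200 µg/ml hygromycin. Cells were harvested at about day 8 to 10 after transduction, and poly(A)-selected RNA was sequenced in 3 libraries of each group. The comparison addressed how the guide against METTL1, which encodes the catalytic subunit of the tRNA N7-methylguanosine enzyme, altered gene expression. With 1 METTL1 guide and no rescue, loss of METTL1 and any other action of that guide cannot be told apart. Whether replicates were separate cultures is not stated, so p-values measure only how these libraries vary, which may be technical.

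NF-kappaB is a family of transcription factors that work as dimers. RELA, REL and RELB encode subunits with an activation domain, while NFKB1 and NFKB2 encode precursors that are processed into DNA-binding subunits without one. In resting cells the IkappaB proteins encoded by NFKBIA, NFKBIB and NFKBIE hold the dimers in the cytoplasm, and receptor signals lead to their phosphorylation, ubiquitination and destruction. The released dimers switch on inflammatory and survival genes in monocytes, and also the genes of several of their own subunits and inhibitors, which makes a feedback loop. NFKBIZ encodes an inducible nuclear IkappaB protein, and TNFAIP3 encodes a ubiquitin-editing enzyme that quenches the upstream signal.

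The promoters of these genes are shown because such feedback runs through kappaB sites near the start of transcription. RefSeq promoter sequences (GRCh38.p14) were found for 8 of the 10 genes, with 14 annotated starts; RELB and NFKBIE had no entry. The kappaB consensus motif, 10 bases long, was searched on both strands in the 250 bases before each start, and overlapping matches were merged in the display. It matched before 9 of the 14 starts and in 7 of the 8 genes, against 9.96% of all 35116 starts and 11.8% of all 27305 genes in the table. Genes with several starts had several windows in which to match. Sequences are given 5′ to 3′ on the gene's strand, with matched bases in capitals. Matches that lay within an annotated exon of a protein-coding gene are shown with 30 bases only. Further matches before other starts of NFKB2 and NFKBIZ are not printed.
NFKB1, chr4:102501219-102501328, plus strand: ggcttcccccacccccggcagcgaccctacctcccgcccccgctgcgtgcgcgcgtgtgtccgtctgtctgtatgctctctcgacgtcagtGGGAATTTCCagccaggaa
NFKB2, chr10:102394461-102394490, plus strand: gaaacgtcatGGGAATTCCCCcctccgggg
NFKB2, chr10:102394490-102394519, plus strand: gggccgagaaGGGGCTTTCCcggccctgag
REL, chr2:60881517-60881546, plus strand: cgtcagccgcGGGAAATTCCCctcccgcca
RELA, chr11:65663858-65663967, minus strand: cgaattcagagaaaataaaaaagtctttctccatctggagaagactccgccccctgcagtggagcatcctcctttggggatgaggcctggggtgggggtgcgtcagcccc
NFKBIA, chr14:35404750-35404859, minus strand: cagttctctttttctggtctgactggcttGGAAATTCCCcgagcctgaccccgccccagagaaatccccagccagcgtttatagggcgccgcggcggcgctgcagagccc
NFKBIB, chr19:38899863-38899951, plus strand: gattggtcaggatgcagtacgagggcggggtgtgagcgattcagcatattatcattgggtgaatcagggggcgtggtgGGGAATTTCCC
NFKBIZ, chr3:101827740-101827836, plus strand: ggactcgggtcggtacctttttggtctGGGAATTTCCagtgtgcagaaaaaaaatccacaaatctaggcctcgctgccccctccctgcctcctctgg
TNFAIP3, chr6:137867188-137867217, plus strand: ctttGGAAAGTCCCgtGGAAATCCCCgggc

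Counting the base before the start as -1, the NFKBIA match spanned -81 to -72 and the NFKB1 match -49 to -40. TNFAIP3 carried 2 matches in tandem, at -67 to -58 and -55 to -46. NFKBIZ shared the same matched bases as NFKB1, but farther out, at -223 to -214. RELA was the 1 gene of the 8 with no match in either of its windows. A match describes letters in a window and shows no binding.

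The deposited values were TPM, a relative level per transcript length, multiplied by 1 factor per library so that 92 ERCC spike-in RNAs summed to the same value. Read depth is unknown, and between 12134 and 12505 genes reached a value of at least 1. The factors were 1.19 ± 0.0518 for the controls and 0.935 ± 0.0973 for sgMETTL1.3 (SD, n = 3; exact two-sided permutation p = 0.1, the smallest that 3 against 3 allows). Over the 12449 tested genes the log2 fold change therefore had a median of -0.32 on the spike-in scale and 0.00 as TPM, and each member is given under both. The library sgMETTL1.3 replicate 1 stood apart: its deviation from its group correlated with transcript GC content (Spearman 0.855 across 11745 genes, which are not independent replicates). Its spike-ins were also the least even. The log2 ratios of single spike-ins to their mean over the libraries had an SD of 0.234 there, against 0.0726 to 0.145 in the others. Of 16 myeloid marker genes, 13 were tested, and their summed value was 1780 to 1932 in sgNS and 883 to 1225 in sgMETTL1.3. Most of that difference lay in 2 genes of granule proteins, CTSG (417 to 476 in sgNS, 93.7 to 124 in sgMETTL1.3) and LYZ (385 to 414, and 66.5 to 80.6). CD33 was also lower without overlap (109 to 121, and 67.2 to 76.02). The same held for CD4 (214 to 221, and 152 to 192), FUT4 (27.5 to 30.1, and 11.7 to 13.7), ITGAM, CSF1R, CYBB and TYROBP. The ranges of CD68, CEBPA, SPI1 and CEBPB overlapped between groups. CD14, a monocyte marker, stayed below 1 in every library. Summed markers of T cells, B cells, fibroblasts and endothelium were at most 11.0 in any library, and CD3D and MS4A1 were at 0 in all 6. The part of these differences in the values of the members was not tested. METTL1 transcript was at 5.94 to 8.28 in sgMETTL1.3, below every control (19.7 or more).

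In the control cells the members differed widely in level. NFKB1 had the highest mean at 43.4 ± 0.287 TPM (SD, n = 3), followed by RELA at 39.6 ± 1.27 and NFKBIA at 37.2 ± 1.77. Ranges overlapped between RELA and NFKBIA, between NFKBIB and REL, and between REL and NFKB2, and not between the other neighbours in the order. NFKBIB, REL and NFKB2 lay between 25.2 and 30.4 TPM. NFKBIE, TNFAIP3 and RELB followed with 18.6, 15.02 and 9.54 TPM, and NFKBIZ was lowest at 4.21 ± 0.350 TPM.

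**Figure D1:**
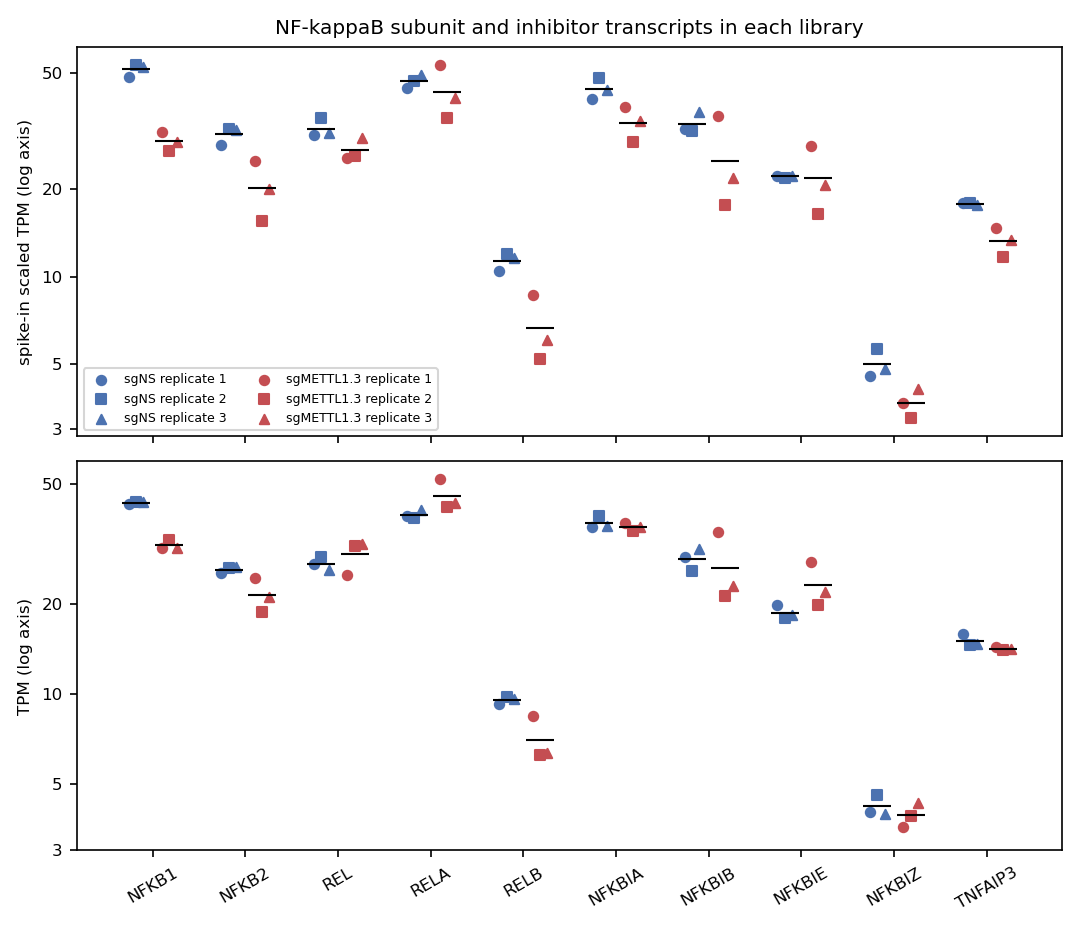
Values of the 10 members in each library, as spike-in scaled TPM (top) and TPM (bottom), both on log axes; marker shapes give the replicate and black lines the group means. NFKB1, NFKB2, RELB and TNFAIP3 lie lower in every sgMETTL1.3 library than in any sgNS library in both panels. RELA, NFKBIB and NFKBIE overlap between groups in the top panel.

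On the spike-in scale 6 of the 10 members fell and none rose, beside 49.3% of all tested genes lower and 6.4% higher. As TPM only NFKB1 and RELB fell and none rose, beside 26.6% lower and 24.4% higher among all genes. The groups did not overlap for 7 members on the spike-in scale, all lower, beside 53.4% of genes lower and 8.65% higher. As TPM 4 members lay lower and 2 higher without overlap, beside 33.1% and 30.2%. No test compared these counts with those of all genes, and they are read as a description. The 3 subunit genes NFKB1, NFKB2 and RELB fell, while RELA and REL did not pass the test. Among the inhibitors, NFKBIA, NFKBIZ and TNFAIP3 fell on the spike-in scale, and none of the 5 passed as TPM. Calls are from limma with Benjamini-Hochberg adjustment over all tested genes at 0.05, and log2 fold changes are of log2(value + 1), which understates the change of low genes. In bulk RNA a lower value cannot be told apart between fewer expressing cells and less RNA per cell.

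NFKB1, the precursor gene of the canonical pathway, lies on chromosome 4 at 102501329 to 102617302 (GRCh38). Its values were 48.6, 53.5 and 52.5 in sgNS and 31.4, 27.1 and 29.1 in sgMETTL1.3. All 3 sgMETTL1.3 libraries were below every control, with no overlap, and the mean fell by 43.4%. This was a difference of -0.80 on the log2 scale (SE 0.105, limma adjusted p = 3.18e-05). The TPM means were 43.4 ± 0.287 and 31.3 ± 1.10 (SD, n = 3), and their log2 fold change of -0.46 (SE 0.0585) also passed. Its fold change kept its direction and its call under all 19 alternatives tried.

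RELB, the activating subunit of the noncanonical pathway, lies on chromosome 19 at 45001430 to 45038198. Its values were 10.4, 12.0 and 11.6 in sgNS against 8.65, 5.21 and 6.04 in sgMETTL1.3. Groups did not overlap, and the sgMETTL1.3 library nearest to the controls was replicate 1. RELB fell by 0.72 on the log2 scale (SE 0.159, limma adjusted p = 0.00216), and by 0.90 without that replicate. As TPM it fell with a log2 fold change of -0.40 (SE 0.114), and RELB too kept direction and call under all 19 alternatives.

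NFKB2, the precursor gene of the noncanonical pathway and the usual partner of RELB, lies on chromosome 10 at 102394110 to 102402529. It was at 28.5, 32.2 and 31.9 in sgNS, and at 24.9, 15.6 and 19.98 in sgMETTL1.3. Again no values overlapped and replicate 1 was nearest to the controls. NFKB2 fell on the spike-in scale, by 0.61 in log2 units (SE 0.152, limma adjusted p = 0.00518). As TPM the groups did not overlap either, at 25.2 to 26.5 against 18.7 to 24.3, but the log2 fold change of -0.28 (SE 0.0983) did not pass. Without sgMETTL1.3 replicate 1 it passed as TPM, at -0.37.

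RELA encodes the main activating subunit of the canonical pathway. Its gene is on chromosome 11, minus strand, from 65653596 to 65663094. Its values were 44.4, 47.2 and 49.4 in sgNS, against 53.4, 35.1 and 41.1 in sgMETTL1.3. Replicate 1 was above every control and the other sgMETTL1.3 libraries below every control, so the groups overlapped. The log2 fold change was -0.14 (SE 0.141, limma adjusted p = 0.426). As TPM every sgMETTL1.3 library was above the controls, at 42.1 to 52.1 against 38.5 to 41.0, with a log2 fold change of 0.20 (SE 0.0910) that did not pass. Without replicate 1 RELA fell on the spike-in scale (-0.30) and rose as TPM (0.11), so its direction depends on the scaling.

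REL, the activating subunit best known from lymphoid and myeloid cells, lies on chromosome 2 at 60881521 to 60931610. It was at 30.6, 35.0 and 31.3 in sgNS and at 25.6, 25.96 and 30.04 in sgMETTL1.3. The groups did not overlap, though the closest libraries were less than 1 unit apart, and the log2 fold change of -0.24 (SE 0.112) did not pass (limma adjusted p = 0.0827). As TPM the groups overlapped and the log2 fold change was 0.10. Without sgMETTL1.3 replicate 1 REL rose as TPM (0.20), and the value on the spike-in scale was -0.20 without passing.

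NFKBIA encodes an IkappaB protein known for fast feedback, from chromosome 14, minus strand, 35401511 to 35404749. It was at 40.8, 48.1 and 43.7 in sgNS and at 38.2, 29.04 and 34.2 in sgMETTL1.3, with no overlap. NFKBIA fell on the spike-in scale, by 0.38 on the log2 scale (SE 0.121, limma adjusted p = 0.0157), close to the median of all genes. As TPM its groups overlapped, at 36.1 to 39.2 against 34.9 to 37.3, and the log2 fold change was -0.04 (SE 0.0646). The spike-in call was lost when either sgNS replicate 2 or sgMETTL1.3 replicate 3 was left out, at -0.32 and -0.39.

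TNFAIP3, on chromosome 6 at 137867188 to 137883312, was at 17.9, 17.9 and 17.7 in sgNS and at 14.6, 11.7 and 13.4 in sgMETTL1.3. The control values were close together, and all sgMETTL1.3 values were lower. The log2 difference was -0.41 (SE 0.117, limma adjusted p = 0.00962), and the call held with each library left out in turn. As TPM the difference was -0.08 (SE 0.0668) and did not pass, although the sgMETTL1.3 values of 14.0 to 14.3 were all below the controls at 14.6 to 15.9.

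NFKBIZ, on chromosome 3 at 101827991 to 101861022, was the lowest member, at 4.55, 5.66 and 4.80 in sgNS and 3.67, 3.25 and 4.10 in sgMETTL1.3. It fell on the spike-in scale by 0.36 in log2 units (SE 0.134, limma adjusted p = 0.0351). The call was lost without sgNS replicate 2 (-0.28), sgNS replicate 3 (-0.38) or sgMETTL1.3 replicate 2 (-0.29). As TPM the groups overlapped and the log2 fold change was -0.08.

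NFKBIB and NFKBIE, the other cytoplasmic IkappaB genes, did not pass on either scale with all libraries. NFKBIB, on chromosome 19 at 38899700 to 38908893, was at 32.2, 31.6 and 36.7 in sgNS, and at 35.6, 17.6 and 21.8 in sgMETTL1.3. Replicate 1 lay within the controls, whereas the other sgMETTL1.3 libraries were far below them, and the log2 fold change was -0.47 (SE 0.235, limma adjusted p = 0.132). Without replicate 1 NFKBIB fell on both scales, by 0.74 on the log2 spike-in scale and 0.34 as TPM. NFKBIE, from chromosome 6, minus strand, 44258166 to 44265788, was at 22.3, 21.9 and 22.2 in sgNS. Its sgMETTL1.3 values of 28.2, 16.5 and 20.7 spread to both sides of the controls, giving -0.05 (SE 0.166, limma adjusted p = 0.811). Without replicate 1 NFKBIE fell on the spike-in scale (-0.25) and rose as TPM (0.15).

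Exons of 4 members overlap other annotated genes: NFKBIB overlaps SIRT2 on the opposite strand, RELA AP001362.2, TNFAIP3 AL357060.1, and REL AC010733.2 on its own strand. Whether the counting used strand is not given, so reads in these overlaps could be assigned to either gene.

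**Figure D2:**
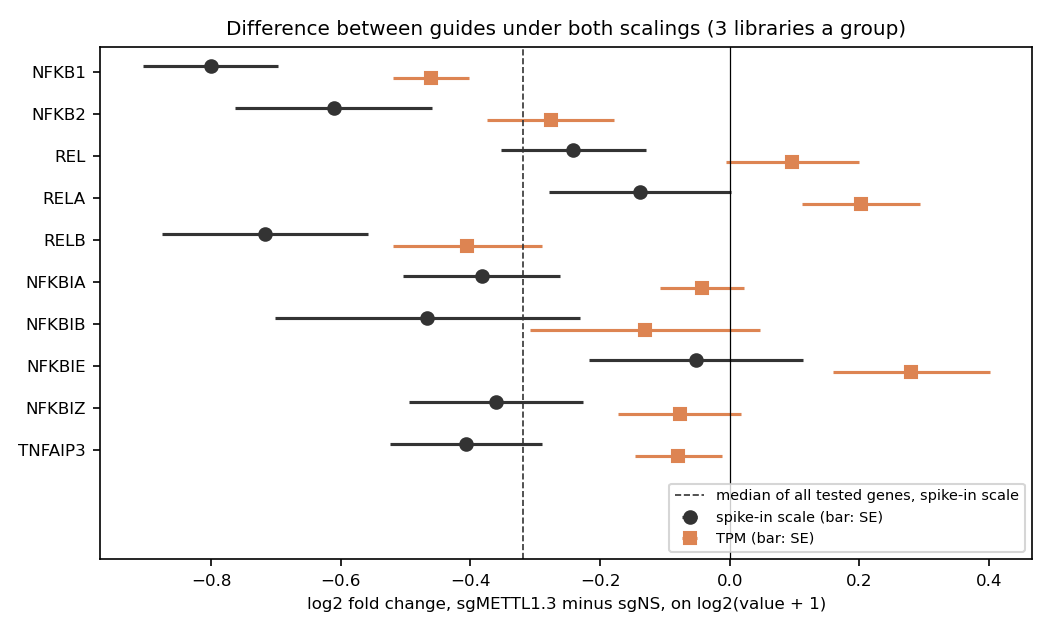
Log2 fold change of each member, sgMETTL1.3 minus sgNS, on the spike-in scale (circles) and as TPM (squares), with standard errors and 3 libraries a group. The circles of NFKB1, NFKB2 and RELB lie left of the dashed median of all genes (-0.32) by more than their standard error. Those of NFKBIA, NFKBIB, NFKBIZ and TNFAIP3 also lie left of it, but within their standard error.

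The ratio of 2 members within a library does not depend on that library's factor, so ratios describe the family's make-up under either scaling. They are given without a test. NFKB1 was at 1.10, 1.13 and 1.06 times RELA in the sgNS libraries, and at 0.588, 0.773 and 0.708 times RELA in the sgMETTL1.3 libraries. In every control NFKB1 was thus the more abundant of the pair, and in every sgMETTL1.3 library RELA was. The RELB to RELA ratio averaged 0.241 ± 0.0108 in the controls and 0.152 ± 0.00824 with sgMETTL1.3 (SD, n = 3), and the NFKB2 to RELA ratio 0.656 ± 0.0220 and 0.466 ± 0.0207. RELB and NFKB2 differ from RELA in transcript GC content by 4.76 and 1.29 percentage points. The gap is 10.6 points for NFKB1, whose ratio was lowest in replicate 1, 10.3 for TNFAIP3, 4.26 for NFKBIA, 2.54 for NFKBIB and 20.8 for REL, and its part in the ratios was not tested. The REL to RELA ratio overlapped between groups, at 0.632 to 0.742 in sgNS and 0.479 to 0.741 in sgMETTL1.3. RELA made up 27.2 ± 0.875% of the summed subunit values in sgNS and 33.9 ± 2.73% in sgMETTL1.3, while NFKB1 made up 29.8 ± 0.119% and 23.2 ± 1.54%.

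Among the inhibitors, NFKBIA relative to RELA was 0.884 to 1.02 in sgNS and 0.715 to 0.831 in sgMETTL1.3, and TNFAIP3 relative to RELA 0.358 to 0.403 and 0.274 to 0.333. Relative to NFKB1 the order was the opposite: NFKBIA was at 0.839, 0.899 and 0.832 times NFKB1 in sgNS and at 1.22, 1.07 and 1.17 in sgMETTL1.3. TNFAIP3 and NFKBIA kept a like ratio, at 0.371 to 0.439 and 0.384 to 0.402. NFKBIE was the inhibitor whose share of the summed inhibitor values was higher, from 18.0 ± 0.751% to 22.2 ± 1.20% (SD, n = 3), with no overlap.

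**Figure D3:**
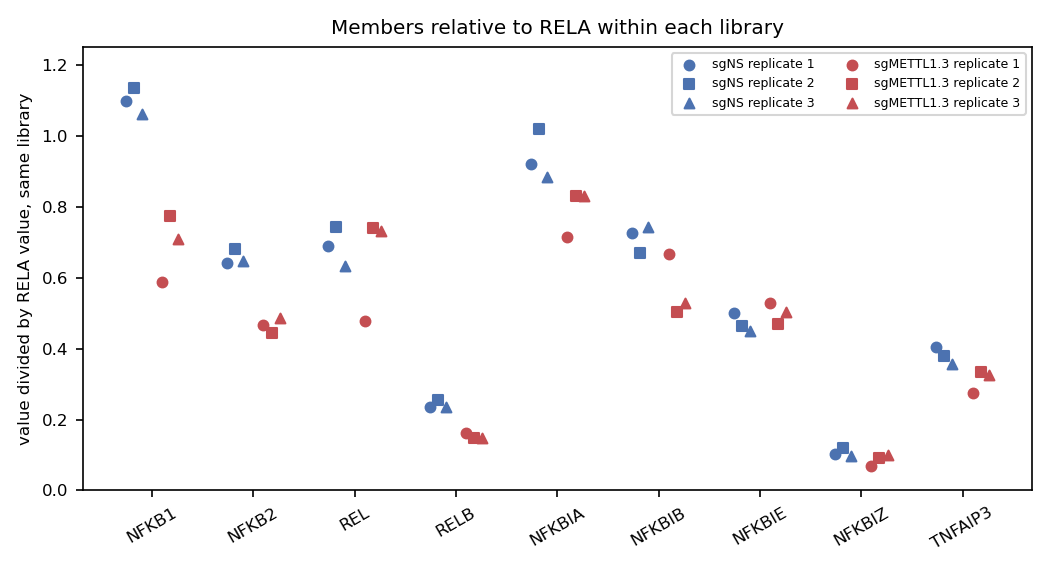
Each member's value divided by the RELA value of the same library, with sgNS in blue and sgMETTL1.3 in red and marker shapes for replicates. NFKB1, NFKB2, RELB, NFKBIA, NFKBIB and TNFAIP3 lie lower relative to RELA in every sgMETTL1.3 library; REL, NFKBIE and NFKBIZ overlap.

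The standing of sgMETTL1.3 replicate 1 differed between members with their transcript GC content. It exceeded the mean of the other sgMETTL1.3 libraries by 0.83 on the log2 scale for NFKBIB (GC 62.8%), 0.59 for NFKBIE (61.4%), 0.55 for RELB (65.0%) and 0.48 for both RELA (60.3%) and NFKB2 (61.5%). For NFKB1 (49.6%) the excess was 0.16, for NFKBIZ (48.5%) 0.00, and REL (39.5%) was lower there by a log2 difference of -0.12. Across the 10 members, which share these libraries, Spearman's rho between this difference and GC content was 0.915. Without replicate 1, 9 of the 10 members fell on the spike-in scale, beside 61.4% of all genes lower and 6.43% higher, and REL did not pass. With a GC correction of all libraries the same 9 fell, beside 61.2% lower and 8.4% higher. As TPM without it, NFKB1, NFKB2, RELB and NFKBIB fell and REL, RELA and NFKBIE rose, beside 35.4% lower and 34.7% higher. With the GC correction as TPM, the same 4 fell and only REL rose, beside 35.5% and 30.3%. The part of GC content in these differences was not tested beyond these fits.

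**Figure D4:**
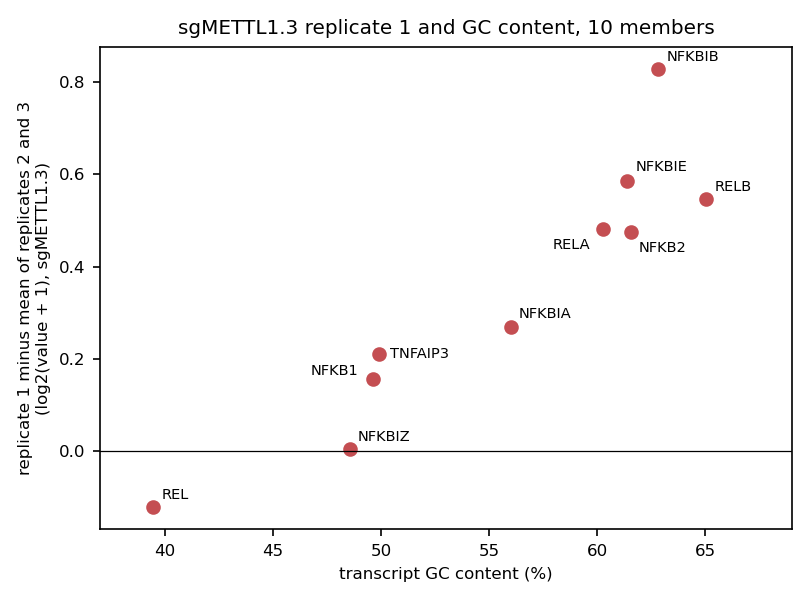
For the 10 members, transcript GC content (horizontal axis, %) against the excess of sgMETTL1.3 replicate 1 over the mean of replicates 2 and 3 (vertical axis, log2(value + 1)). The difference runs from -0.12 for REL to 0.83 for NFKBIB, and the 5 members above 60% GC all exceed 0.4.

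The rest of the pathway was described from lists chosen with the same biology in mind, from ligand to target, leaving out the members. Among ligands, 4 of 12 genes were tested. On the spike-in scale 3 fell and none rose, beside 49.3% lower and 6.4% higher among all genes. As TPM 2 fell and none rose, beside 26.6% and 24.4%. TNFSF13B, the B cell activating factor, was at 166, 183 and 169 in sgNS and at 73.0, 72.9 and 82.6 in sgMETTL1.3, a log2 difference of -1.17 (SE 0.0998, limma adjusted p = 1.35e-06). The inflammasome cytokine gene IL18 fell (-1.08), and both of these also fell as TPM. IL1B, which encodes interleukin-1 beta, fell on the spike-in scale (-0.40) and did not pass as TPM (-0.07), and TNFSF14 did not pass on either (-0.22 and 0.11), though it passed as lower with the GC correction (-0.28) and as higher in TPM without sgMETTL1.3 replicate 1 (0.18). Rows for TNF, LTA and LTB were not used here.

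Among receptors, 8 of 17 tested genes fell and 1 rose on the spike-in scale, beside 49.3% lower and 6.4% higher among all genes, and 8 fell and 6 rose as TPM, beside 26.6% and 24.4%. TNFRSF1B, the second TNF receptor, was at 107, 114 and 114 in sgNS and 53.3, 38.2 and 41.9 in sgMETTL1.3, a log2 difference of -1.32 (SE 0.122, limma adjusted p = 2.40e-06). TNFRSF1A, the main TNF receptor, fell less in size (-0.64). The endotoxin receptor gene TLR4 fell (-0.85) and TLR2, the receptor for bacterial lipoproteins, fell (-1.47), and all 4 of these also fell as TPM, though the TNFRSF1A call was lost with quantile normalization (-0.20). LTBR, the lymphotoxin receptor, had a log2 fold change of -0.26 and did not pass. It did pass without sgMETTL1.3 replicate 1 (-0.41), with the GC correction (-0.41) and with scaling by the median of spike-in ratios (-0.32). TLR6, a low-level partner of TLR2 with values of 1.16 to 1.84 in sgNS and 2.00 to 2.84 in sgMETTL1.3, was the 1 that rose; its call was lost without sgNS replicate 1 (0.34), sgNS replicate 3 (0.42) or sgMETTL1.3 replicate 3 (0.33), and without a filter on low values.

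Adaptors and ubiquitin ligases had 17 of 25 tested genes lower and none higher, beside 49.3% lower and 6.4% higher among all genes. Their median log2 fold change was -0.49 beside -0.32 for all genes. As TPM 6 fell and none rose, beside 26.6% and 24.4%, with a median of -0.15. UBE2N, an enzyme that builds ubiquitin chains in this pathway, was at 121, 137 and 134 in sgNS and at 55.3, 56.8 and 64.5 in sgMETTL1.3. Its log2 fold change was -1.14 (SE 0.104, limma adjusted p = 2.20e-06). FBXW11 and CUL1, parts of the ligase that marks IkappaB for destruction, fell by 0.72 and 0.64 on the log2 scale, and all 3 genes fell as TPM too. Their partner SKP1 fell on the spike-in scale (-0.30), as did UBE2V1 (-0.26) and UBE2D3 (-0.45), and none of these 3 passed as TPM. The SKP1 call was lost without sgNS replicate 2 (-0.28) or 3 (-0.29), and the UBE2V1 call without any 1 library other than sgMETTL1.3 replicate 3 (-0.28 to -0.20). Both calls were also lost with a block for replicate number and with the GC correction (-0.17 and -0.18), and that of UBE2V1 without a filter or without trend. IRAK1, a kinase that acts below Toll-like receptors, had values of 345 to 380 in sgNS and 268 to 430 in sgMETTL1.3, overlapping, and did not pass (-0.15). It passed as lower without sgMETTL1.3 replicate 1 (-0.34) and with the GC correction (-0.39), and as higher in TPM without that replicate (0.078).

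Of 15 tested kinases and their partner subunits, 8 fell and 1 rose, near the 49.3% lower and 6.4% higher of all genes, and as TPM 1 fell and 2 rose, beside 26.6% and 24.4%. The count that fell was 4 without sgNS replicate 2 and 5 without sgNS replicate 3. All genes called lower dropped too, from 6142 of 12449 to 4880 of 12279 and 5190 of 12285. MAP3K8, a kinase held in check by the NFKB1 precursor protein, was the 1 that rose, from 17.3, 18.8 and 19.6 in sgNS to 24.1, 23.1 and 26.7 in sgMETTL1.3 (log2 fold change 0.39, SE 0.112, limma adjusted p = 0.00951). It rose as TPM too (0.72), and the spike-in call was lost without sgNS replicate 1 (0.34). MAP3K7, the kinase that activates the IkappaB kinases, fell (-0.61). As TPM it fell too (-0.27), but the call was lost with quantile normalization (-0.23) and with GC-corrected TPM (-0.095). Its partners TAB2 (-0.50) and TAB3 (-0.41) fell on the spike-in scale alone. TANK (-0.32) and NEK7 (-0.40) fell on the spike-in scale without passing as TPM, and TBK1 (-0.06) did not pass on either, though it passed as higher with median-ratio factors (0.30), quantile normalization (0.36), GC-corrected TPM (0.45) and, when sgMETTL1.3 replicate 1 was dropped, as TPM (0.43). The TANK call was lost without any single sgNS library or sgMETTL1.3 replicate 2 (-0.34 to -0.29), and also with the GC correction (-0.16) and without a filter, and the NEK7 call without sgNS replicate 2 (-0.35).

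Other IkappaB proteins and negative regulators had 8 of 20 tested genes lower and none higher (all genes 49.3% and 6.4%), against 5 lower and 6 higher as TPM (26.6% and 24.4%). OTULIN, an enzyme that removes linear ubiquitin chains, fell (-0.99), as did IRAK3, a kinase-dead brake on Toll-like receptors (-0.86), and TAX1BP1, an adaptor of TNFAIP3 (-0.75); all 3 also fell as TPM. TNIP1, which binds TNFAIP3, fell on the spike-in scale (-0.35) and was at 0.00 as TPM. The TNIP1 call was lost without a filter on low values, and without sgNS replicate 2 or 3 (-0.33 in both), sgMETTL1.3 replicate 2 (-0.23) or replicate 3 (-0.34). COMMD1 (-0.21) and PIAS1 (-0.25) did not pass, and their direction and call varied with the scaling. Both passed as lower without sgMETTL1.3 replicate 3 (-0.31 and -0.33) and with the median of spike-in ratios (-0.28 and -0.32), COMMD1 also with the GC correction (-0.23). Both passed as higher in TPM without sgMETTL1.3 replicate 1 (0.21 and 0.20), COMMD1 also with quantile normalization (0.21) and PIAS1 with GC-corrected TPM (0.18). Of 16 coactivators, corepressors and modifiers of the REL proteins, 9 fell and none rose on the spike-in scale. As TPM 4 fell and 6 rose, to be read against the same all-gene shares. Without sgNS replicate 3, 5 fell on the spike-in scale, beside 5190 of 12285 among all genes. GSK3B (-0.80), PPP2CA (-0.74) and HDAC2 (-0.73) fell on both scales, and RPS3 (-0.32) and CSNK2A1 (-0.35) on the spike-in scale alone. HDAC1 rose as TPM alone (0.43), with 0.08 on the spike-in scale. The calls of RPS3 and CSNK2A1 were lost without sgNS replicate 2 (-0.30 and -0.32) or 3 (-0.30 and -0.34), and that of RPS3 also without sgMETTL1.3 replicate 3 (-0.34).

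NF-kappaB target genes outside the family moved in both directions. Of 38 tested, 17 fell and 5 rose, beside 49.3% lower and 6.4% higher among all genes. As TPM 8 fell and 17 rose, beside 26.6% and 24.4%. Without sgMETTL1.3 replicate 2, 8 rose on the spike-in scale. All genes called higher then went from 797 of 12449 to 1037 of 12337. The chemokine genes CXCL8 (-3.08) and CCL2 (-2.50) and the hyaluronan receptor gene CD44 (-1.24) had the smallest p among those that fell, and all 3 fell as TPM. The survival gene BCL2A1 rose from 685, 729 and 730 in sgNS to 880, 912 and 1063 in sgMETTL1.3, a log2 difference of 0.41 (SE 0.101, limma adjusted p = 0.00370). SQSTM1, an autophagy cargo receptor, rose from 329 to 354 in sgNS to 485 to 678 in sgMETTL1.3 (log2 fold change 0.72), and GADD45B, a stress-response gene, rose by 0.62. The other two that rose, IER3 (0.71) and ATF3 (0.44), are named after their values were seen. All 5 were higher in every sgMETTL1.3 library than in any control, rose as TPM, and kept positive values without replicate 1 (0.44 to 0.59). SAT1, the polyamine acetyltransferase, had a log2 fold change of -0.11 and did not pass, and rose as TPM. Many of these targets also answer to other factors, so the list is no readout of NF-kappaB alone. TNIP1, IL1B, BIRC3, TRAF1, RIPK2, BCL3, IL1A and TNF stand in this list and in another. Of these, TNIP1, IL1B, BIRC3, TRAF1 and RIPK2 fell on the spike-in scale and are counted in both.

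**Figure D5:**
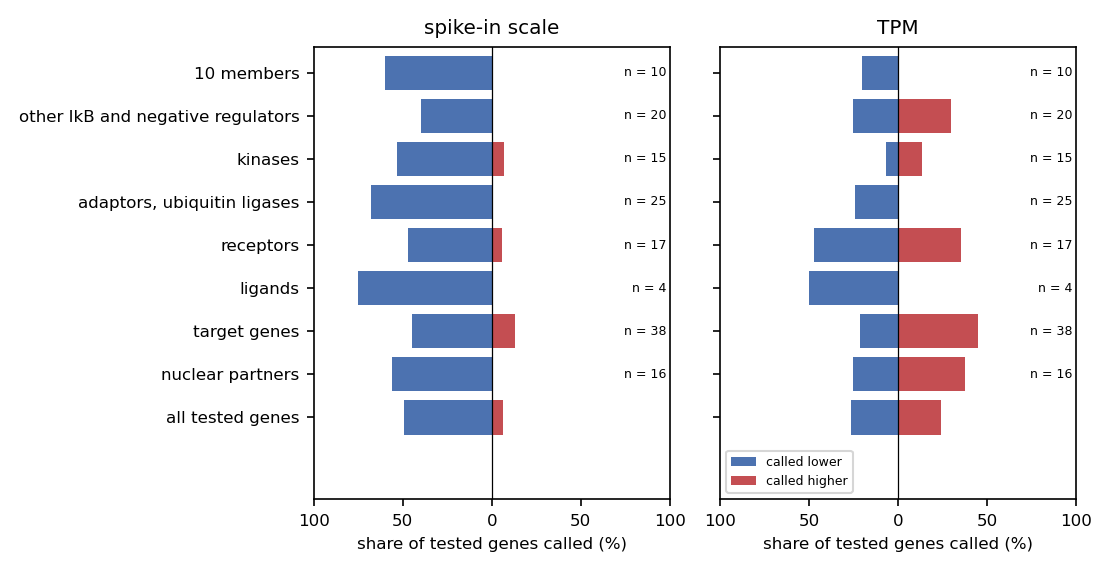
Share of tested genes called lower (blue, left) and higher (red, right) in each list, on the spike-in scale and as TPM, with the number tested beside each list and all tested genes at the bottom. Adaptors (17 of 25) and ligands (3 of 4) have the highest shares lower on the spike-in scale, beside 49.3% of all genes. Target genes have 17 of 38 higher as TPM, beside 24.4% of all genes.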

How the data were processed

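RNA-seq of 3 sgNS and 3 sgMETTL1.3 libraries was used. The submitters' processing notes name cutadapt, STAR, RSEM, GRCh38 and hg38, without versions; annotation and strandedness of the counting are not given in the sources used. The deposited signal is TPM in steps of 0.01 multiplied by 1 factor per library that sets the spike-in sum to 38252, as read from the values; so depth and counting error are unknown. TPM was recovered by dividing by that factor.

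Genes that reached 1 in 3 or more of the 6 libraries entered limma 3.58.1 as log2(value + 1) (R 4.3.3; trend, robust), without a block, and p-values were adjusted with Benjamini-Hochberg over all tested genes. Spike-ins were left out. The fit was tested on simulated data. GC content and positions came from GENCODE 29 (94.3% of tested genes), promoters from RefSeq. The GC correction removed each library's lowess trend (span 0.5) of its deviation from the gene mean. The members, the 7 lists and the alternatives were chosen with earlier results of these data known. Of the list entries outside the family, 5 had no row used here and 25 were under the filter. TNF and IL1A are each entered in both the ligand and the target list. Named from each list were the 4 with the highest mean and up to 3 called genes in each direction with the smallest p. The alternatives were other scalings, pseudocounts, filters, a GC correction, limma without trend, a block for replicate number, and leaving out single libraries.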

Additional observations from a re-analysis of the deposited data

How the results depend on the processing

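NFKB1 and RELB kept direction and call under all 19 alternatives; the other 8 members did not. The cause of each change was not tested, except that scalings not tied to the spike-ins centre the genes near 0. All-gene counts lower were 3295 as TPM, 3340 with median-ratio factors and 3231 with quantiles, and counts higher 3021, 3179 and 2978, 3548 after GC correction of TPM, 4231 for TPM when sgMETTL1.3 replicate 1 was dropped, and 510 under a filter on a mean of 5, which leaves fewer genes. Members called lower were 2 under the first 3 of these; 1 was higher after GC correction of TPM and 3 for TPM without replicate 1.

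In the order TPM, median-ratio, quantile, GC-corrected TPM and TPM without replicate 1, log2 fold changes were 0.10, 0.11, 0.13, 0.25 and 0.20 for REL, 0.20, 0.22, 0.26, 0.028 and 0.11 for RELA, 0.28, 0.29, 0.32, 0.087 and 0.15 for NFKBIE, -0.043, -0.028, 0.0097, -0.15 and -0.066 for NFKBIA, -0.077, -0.066, -0.19, -0.065 and -0.025 for NFKBIZ and -0.079, -0.066, -0.068, -0.089 and -0.086 for TNFAIP3. NFKB2 was at -0.28, -0.26 and -0.25 under the first 3, and NFKBIB at -0.35 and -0.34 under the last 2, where it passed. GC correction on the spike-in scale let RELA (-0.32), NFKBIB (-0.69) and NFKBIE (-0.25) pass, and the median of spike-in ratios REL (-0.30) and NFKBIB (-0.53). Without a filter NFKBIZ (-0.36) did not pass, and under the filter on the mean it was not tested.

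In the same order of 5, counts lower and higher were 1 and 2, 1 and 3, 0 and 3, 0 and 5, and 1 and 5 for kinases, 8 and 17, 8 and 16, 7 and 17, 9 and 19, and 8 and 19 for target genes, and 4 and 6, 4 and 6, 4 and 6, 4 and 6, and 5 and 8 for nuclear partners. Adaptors lower were 6, 7, 6, 11 and 9, with 4 and 5 higher under the last 2. Other IkappaB proteins and negative regulators had 5 lower under the first 2 and 6, 6, 7, 7 and 10 higher. Receptors higher were 6 under all but quantiles and 4 with GC correction on the spike-in scale. They were 0 under the filter on the mean, where TLR6 was not tested. As TPM without replicate 1, 1 ligand rose. Negative regulators higher were 1 with the median of spike-in ratios, without trend and with the block, and 2 with GC correction. Target genes higher were 8 without a filter. Among all genes, 26.6% fell and 24.4% rose as TPM, 35.5% and 30.3% as GC-corrected TPM, and 35.4% and 34.7% as TPM without replicate 1. Of 12464 genes, 3340 fell and 3179 rose with median-ratio factors. Quantiles gave 3231 and 2978 of 12449. All genes higher were 8.4% with GC correction, 510 of 10166 under the filter on the mean and 1047 of 19730 without a filter.

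Of 46 other genes followed through the alternatives (METTL1 and list genes), 23 kept direction and call throughout. In the same order, log2 fold changes that turned from below to above 0 were 0.13, 0.15, 0.21, 0.11 and 0.21 for COMMD1, 0.00068, 0.015, 0.058, 0.077 and 0.084 for CSNK2A1, 0.090, 0.10, 0.17, 0.18 and 0.20 for PIAS1, 0.027, 0.042, 0.016, 0.014 and 0.023 for RPS3, 0.24, 0.26, 0.30, 0.32 and 0.31 for SAT1, 0.048, 0.063, 0.15, 0.18 and 0.13 for SKP1, 0.026, 0.041, 0.094, 0.18 and 0.18 for TANK, 0.29, 0.30, 0.36, 0.45 and 0.43 for TBK1, 0.11, 0.13, 0.14, 0.055 and 0.18 for TNFSF14 and 0.091, 0.11, 0.19, 0.17 and 0.21 for UBE2V1. Above 0 under some of them were IRAK1 (0.20) and LTBR (0.087) as TPM; IRAK1 (0.21), LTBR (0.10) and TNIP1 (0.0098) with median-ratio factors; IRAK1 (0.25), LTBR (0.16), NEK7 (0.021) and TNIP1 (0.060) with quantiles; NEK7 (0.10), TAB3 (0.067) and UBE2D3 (0.013) with GC-corrected TPM; IL1B (0.018), IRAK1 (0.078), LTBR (0.0034), NEK7 (0.073), TAB3 (0.036) and UBE2D3 (0.028) as TPM without replicate 1. TBK1 was above 0 with GC correction (0.11) and without sgMETTL1.3 replicate 1 (0.021), and IRAK1 was at 3.8e-05 without sgMETTL1.3 replicate 2. As higher, SAT1 passed under all 5, TBK1 under the last 4, PIAS1, SKP1, UBE2V1 and TANK under the last 2, COMMD1 under quantiles and the last, and CSNK2A1, IRAK1 and TNFSF14 under the last.

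Leaving out 1 library gave 4880 to 7538 genes lower and 534 to 1037 higher, and 4 to 9 members lower, the most without sgMETTL1.3 replicate 1. Log2 fold changes ran from -0.31 to -0.18 for REL, -0.30 to -0.0023 for RELA, -0.47 to -0.28 for NFKBIA, -0.74 to -0.26 for NFKBIB, -0.25 to 0.12 for NFKBIE (above 0 without sgMETTL1.3 replicate 2) and -0.43 to -0.28 for NFKBIZ. Counts lower and higher ran from 4 to 12 and 0 to 1 for kinases, 5 to 10 and 0 to 1 for nuclear partners, and counts higher from 0 to 1 for negative regulators, 0 to 2 for receptors and 5 to 8 for target genes.

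With a replicate block 5861 genes fell and 814 rose; NFKBIB passed (-0.47), and NFKBIZ (-0.36), SKP1 (-0.30) and UBE2V1 (-0.26) did not. Deviations of same-numbered libraries correlated at -0.0137, 0.00455 and -0.0385. Whether such libraries shared a culture or a day cannot be decided from these values, because each deviation is taken from the mean of few libraries. The unknown depth limits what can be said of NFKBIZ and other low genes.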
